A study of Triticum aestivum with 24 samples.

Results

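The 2 genes of ADP-glucose pyrophosphorylase measured in this wheat study, the large subunit gene agp2 (source sequence AJ563452) and the small subunit gene, written AGP-SS here (source sequence AY727927), are described across tissue and line. They were taken by name from a sheet of 26 genes, and each has 1 row of values. RNA was sequenced from flag leaves and from the stem, taken between the first and second internode, of field-grown hexaploid spring wheat (Triticum aestivum) at 14 days past anthesis. Fortuna, of standard height with the wild-type allele Rht-B1a, was compared with its semi-dwarf near isogenic line homozygous for Rht-B1b, an allele brought in from the variety Hi-Line by repeated backcrossing to Fortuna. This gives 4 groups (stem Rht-B1a, stem Rht-B1b, leaf Rht-B1a and leaf Rht-B1b) with 3 tissue samples each, and the study asked how the semi-dwarfing allele bears on carbon and nitrogen metabolism during grain fill. Each line is 1 genotype, so segments of Hi-Line that may remain beside Rht-B1b cannot be told apart from the allele. By its methods, a replicate pooled several plants of a row in 1 passage and came from 1 plant in another.

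ADP-glucose pyrophosphorylase joins glucose 1-phosphate and ATP to form ADP-glucose, the sugar donor that starch synthases add to growing glucan chains, and this is the first committed step of starch synthesis in plants. The enzyme is built from large and small subunits, with catalysis resting mainly on the small subunit and regulation by metabolites shaped by the large subunit. Leaves make transitory starch in chloroplasts during the day and break it down at night, while cereal stems hold reserves mostly as fructans and, to a varying extent, as starch.

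Values are RPKM, reads per kilobase of sequence and per unit of mapped reads, scaled by the authors so that actin is at 1432.5 in all 12 tissue samples. GEO lists each tissue sample as 2 samples, 24 in all, and the values hold 1 column for both, which counts here as 1 replicate. Sequencing depth is unknown, and error is judged from the replicates alone. Samples with consecutive numbers were taken as pairs 1, 2 and 3 of each tissue, since the study's test was paired without naming the pairs. Differences were tested on log2(RPKM + 1) with limma, a linear model over the 25 genes other than actin, with the pair as a block within a tissue and Benjamini-Hochberg adjustment. All log2 differences are on this scale unless a ratio within a sample is named, and a difference passed at an adjusted p under 0.05. Reads were counted only where they matched a listed sequence exactly, so the homoeologous copies of each gene in wheat may be counted in part, and how much they add was not tested. The tissue labels were checked with the 4 sequences of RuBisCO subunits, the leaf's main carbon-fixing enzyme, and all 4 were higher in each leaf sample than in each stem sample (8.27-fold to 40.1-fold by the means). The 8.27-fold was that of rbcL, which lay near the floor, at 0.117 to 0.222 RPKM in stems and 0.966 to 1.79 in leaves. Its mean was the lowest of 26 genes in every group, so the check rests on the rbcS sequences. Whole samples also stood apart within groups. The leaf Rht-B1a sample of pair 1 was the highest of its group for 23 of 25 genes, the leaf Rht-B1b sample of pair 1 for 19, and the leaf samples of pair 3 were each the lowest for 17. In bulk tissue, fewer cells of a type and less RNA per cell cannot be told apart.

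The large subunit gene agp2 was higher in every stem than in every leaf, and among stems it was higher in those of Rht-B1b. In Rht-B1a stems agp2 was at 2040, 1193 and 1738 RPKM in pairs 1, 2 and 3. In Rht-B1b stems it was at 3485, 2660 and 5209 RPKM. The lowest Rht-B1b stem lay above the highest Rht-B1a stem, so the groups did not overlap. This was not particular to agp2. Most of the 25 genes other than actin did not overlap between lines in stems, nearly all of them higher in Rht-B1b. Among these were the RuBisCO sequences and the starch synthase genes GBSSII, isoform IV and IIc precursor. The starch branching enzyme genes Sbe2 and sbeiia did overlap. In Rht-B1a leaves agp2 was at 405, 273 and 419 RPKM, and in Rht-B1b leaves at 355, 243 and 314 RPKM. All 6 leaves lay below all 6 stems, and the leaves of the lines overlapped. Pair 2 gave the lowest agp2 value in each of the 4 groups.

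**Figure D1:**
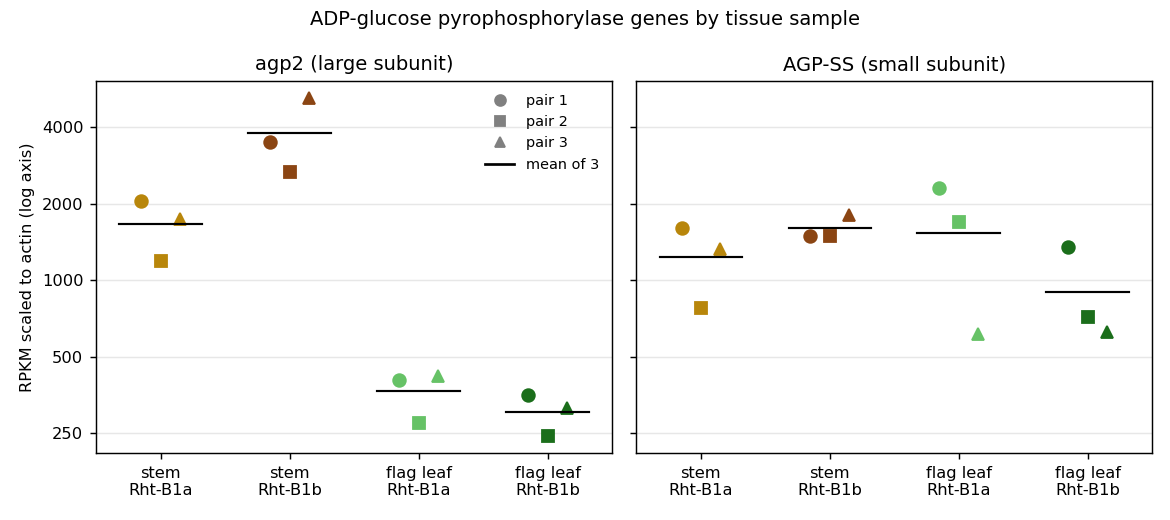
RPKM scaled to actin (vertical log axis) of agp2 and AGP-SS in each of the 12 tissue samples, by tissue and line, with pairs as symbols and lines at the group means (n = 3). Stems sit between 1193 and 5209 RPKM for agp2 and leaves between 243 and 419. Over all 12 samples AGP-SS runs from 615 to 2299 RPKM, with overlap of stem and leaf in Rht-B1a and none in Rht-B1b.

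By mean level, agp2 ran in the order stem Rht-B1b (3785 ± 1301 RPKM, SD, n = 3), stem Rht-B1a (1657 ± 429), leaf Rht-B1a (366 ± 80.2) and leaf Rht-B1b (304 ± 56.8). Neighbours in this order did not overlap, except for the leaf groups. The mean of agp2 ranked 8 of 26 genes in Rht-B1b stems and 12 in Rht-B1a stems, against 24 and 25 in Rht-B1a and Rht-B1b leaves. RPKM is per length of sequence, so these ranks compare genes of unlike length.

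Between the lines, mean agp2 in stems was 2.28 times as high in Rht-B1b as in Rht-B1a, with ratios of 1.71, 2.23 and 2.996 in pairs 1, 2 and 3. The log2 difference was 1.17 (standard error 0.20, 95% interval 0.60 to 1.75, adjusted p = 0.0241 from limma, two-sided), and 8 of 25 genes (32%) passed an adjusted p of 0.05 in stems, agp2 among them and AGP-SS not. The exact permutation test over the 6 stems, which ignores the pairs, gave p = 0.1. This is the smallest that 3 against 3 samples allow, and groups without overlap always give it. The difference was no longer past the threshold without pair 1 (log2 difference 1.37, adjusted p = 0.0748 from limma) or without pair 2 (1.18, adjusted p = 0.128). It fell to 0.72 (adjusted p = 0.0442 from limma) with each sample set to the geometric mean of 21 genes rather than to actin, a scaling that moved the median log2 difference of all genes in stems from 0.56 to 0.11. The 21 genes leave out only the RuBisCO sequences and Rht-B1. They include agp2, AGP-SS and the other starch genes, so these genes help to set the scale they are measured on.

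In leaves, the mean of agp2 in Rht-B1b was 0.831 times that in Rht-B1a. The ratio was 0.877, 0.888 and 0.751 in pairs 1, 2 and 3, so agp2 was lower in Rht-B1b in 3 of 3 pairs. The log2 difference of -0.26 (standard error 0.14, 95% interval -0.60 to 0.086) did not pass (adjusted p = 0.296 from limma, exact permutation p = 0.4). In leaves 1 of 25 genes passed (4%), which was Rht-B1 itself, the growth repressor gene that carries the semi-dwarfing mutation. The effect of Rht-B1b on agp2 differed between the tissues. The difference, stems minus leaves, was 1.43 on the log2 scale (standard error 0.26, 95% interval 0.86 to 2.00, adjusted p = 0.00413 from limma). The exact permutation of lines within tissues gave p = 0.02, and the lowest p that its 400 arrangements allow is 0.005. For 3 of 25 genes (12%) the effect differed between tissues by the limma test, and these were agp2, the starch synthase IIc precursor and the gibberellin receptor gene gid1. For agp2 this call was lost without pair 2 (1.48, adjusted p = 0.0775 from limma). It was also lost without pair 3 (1.14, adjusted p = 0.0651 from limma, in a fit where all genes shared 1 standard error).

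AGP-SS, the small subunit gene, had values over both lines that overlapped between stem and leaf, and it passed the test between lines in neither tissue. In Rht-B1a stems it was at 1602, 780 and 1325 RPKM in pairs 1, 2 and 3. In Rht-B1b stems it was at 1493, 1494 and 1810 RPKM. Of the Rht-B1a stems 2 lay below all Rht-B1b stems and 1 lay within their range, and the Rht-B1a stem of pair 2 was the lowest of all stems. In Rht-B1a leaves AGP-SS was at 2299, 1693 and 615 RPKM, and in Rht-B1b leaves at 1347, 718 and 627 RPKM. Both the highest and the lowest of the 12 values were in Rht-B1a leaves.

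By mean level, AGP-SS ran in the order stem Rht-B1b (1599 ± 183 RPKM, SD, n = 3), leaf Rht-B1a (1536 ± 853), stem Rht-B1a (1236 ± 418) and leaf Rht-B1b (897 ± 392). Each neighbouring pair in this order overlapped. The coefficient of variation of AGP-SS in the leaf groups was 55.5% in Rht-B1a and 43.7% in Rht-B1b, against 22.0% and 18.7% for agp2 in the same samples. In leaves AGP-SS was highest in pair 1 and lowest in pair 3 in both lines. Over 25 genes, counted apart, the pair 1 leaf was the highest of its group for 23 in Rht-B1a and 19 in Rht-B1b. The pair 3 leaf was the lowest for 17 in each line. The full order of the 3 pairs did not hold for every gene, and its part in the spread of AGP-SS was not tested.

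In stems the log2 difference of AGP-SS between lines was 0.43 (standard error 0.24, 95% interval -0.28 to 1.13, adjusted p = 0.211 from limma). Its ratio of Rht-B1b to Rht-B1a was 0.932, 1.91 and 1.37 in pairs 1, 2 and 3. The sign of the stem difference depended on the scaling and was -0.021 relative to the geometric mean of the genes. In leaves AGP-SS had ratios of 0.586, 0.424 and 1.02 in the pairs, lower in Rht-B1b in 2 of 3. The log2 difference there was -0.66 (standard error 0.24, 95% interval -1.24 to -0.078), with an unadjusted p = 0.0316 and an adjusted p = 0.280 from limma and an exact permutation p = 0.4. It passed as lower without pair 3 (-1.004, adjusted p = 0.0407 from limma) and relative to the geometric mean of the genes (-0.73, adjusted p = 0.000335 from limma, in a fit where all genes shared 1 standard error). Without pair 2 it was -0.37 (adjusted p = 0.434 from limma), also with 1 shared standard error. The effect of Rht-B1b on AGP-SS, stems minus leaves, was 1.09 (standard error 0.35, 95% interval 0.31 to 1.87, adjusted p = 0.0646 from limma). It passed without pair 3 (1.42, adjusted p = 0.0291 from limma), again in a fit where all genes shared 1 standard error. Without pair 2 it was 0.55 (adjusted p = 0.328 from limma).

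Between tissues, agp2 was lower in leaf than in stem in both lines, and AGP-SS passed the test, as lower in leaf, in Rht-B1b but not in Rht-B1a. Mean agp2 was 4.53 times as high in stems as in leaves of Rht-B1a and 12.4 times as high in Rht-B1b. The log2 difference, leaf minus stem, was -2.17 in Rht-B1a (standard error 0.29, 95% interval -2.76 to -1.57, adjusted p = 1.87e-07 from limma). In Rht-B1b it was -3.60 (standard error 0.29, 95% interval -4.19 to -3.00, adjusted p = 2.09e-11 from limma). Many genes differed between tissues, with 19 of 25 genes past the threshold in Rht-B1a (76%, 13 higher and 6 lower in leaf) and 18 of 25 in Rht-B1b (72%, 11 higher and 7 lower). Relative to the geometric mean of the genes these counts were 11 higher and 8 lower in Rht-B1a and 10 higher and 8 lower in Rht-B1b. The exact permutation of tissues within lines gave p = 0.005 for agp2, the lowest its 400 arrangements allow.

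For AGP-SS the mean in leaf was 1.24 times that in stem in Rht-B1a, with overlap, and 0.561 times that in stem in Rht-B1b, without overlap. In Rht-B1a the log2 difference, leaf minus stem, was 0.18 (standard error 0.37, 95% interval -0.59 to 0.95, adjusted p = 0.660 from limma), and it was -0.50 relative to the geometric mean of the genes. In Rht-B1b the difference was -0.91 (standard error 0.37, 95% interval -1.68 to -0.14, adjusted p = 0.0311 from limma). This call was lost in 7 of 20 alternatives, which were leaving out any 1 of 5 samples (the Rht-B1b stems of pairs 1 and 3, the Rht-B1a leaf of pair 2 and the Rht-B1b leaves of pairs 2 and 3, adjusted p of 0.0542 to 0.142) and pseudocounts of 10 (adjusted p = 0.107) and 100 (adjusted p = 0.1396). Over both lines the exact permutation test gave p = 0.395 for AGP-SS, with 3 of 6 leaf samples below all stems.

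The ratio of agp2 to AGP-SS within a sample does not depend on actin, since the scaling cancels. It was 1.27, 1.53 and 1.31 in Rht-B1a stems and 2.33, 1.78 and 2.88 in Rht-B1b stems in pairs 1, 2 and 3. It was 0.176, 0.161 and 0.681 in Rht-B1a leaves and 0.263, 0.338 and 0.502 in Rht-B1b leaves. Per length of sequence, agp2 was thus above AGP-SS in all 6 stems and below it in all 6 leaves. The mean ratio was 1.37 ± 0.138 in Rht-B1a and 2.33 ± 0.549 in Rht-B1b stems (SD, n = 3), and 0.339 ± 0.296 and 0.368 ± 0.122 in the leaves. The Rht-B1a leaf of pair 3, which had the lowest AGP-SS value of all samples, had the highest ratio of the leaves.

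**Figure D2:**
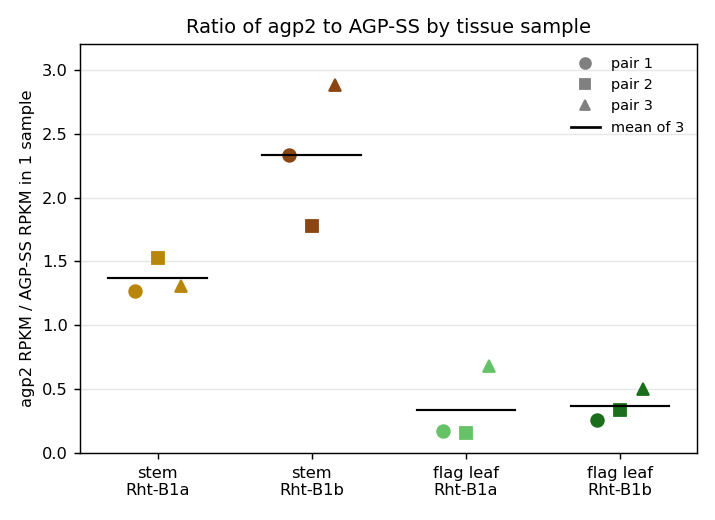
Ratio of agp2 RPKM to AGP-SS RPKM (vertical linear axis) in each of the 12 tissue samples, by tissue and line, with pairs as symbols and lines at the group means (n = 3). Stems sit between 1.27 and 2.88 and leaves between 0.161 and 0.681.

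The ratio passed the test between tissues in both lines. Leaf minus stem, the log2 ratio was -2.35 in Rht-B1a (standard error 0.44, adjusted p = 7.74e-07 from limma) and -2.68 in Rht-B1b (standard error 0.44, adjusted p = 1.8e-08 from limma). Taken relative to AGP-SS, 14 of 25 genes (56%) passed between tissues in Rht-B1a and 18 of 25 (72%) in Rht-B1b. These limma fits gave every gene the same standard error, so their p-values do not carry the ratio's own spread. The exact permutation test of the ratio, which does, gave p = 0.005 for leaf against stem, the lowest it allows.

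In stems the log2 ratio was higher in Rht-B1b by 0.74 (standard error 0.36, 95% interval 0.028 to 1.46) and was the higher in 3 of 3 pairs, by factors of 1.83, 1.16 and 2.19. The groups did not overlap, which with 3 against 3 samples fixes the exact permutation p at its smallest value, 0.1. How many other genes separate in this way relative to AGP-SS was not counted. It did not pass in limma (unadjusted p = 0.0419, adjusted p = 0.209), where 0 of 25 genes passed relative to AGP-SS (0%) and 5 had an unadjusted p under 0.05. Without pair 2 the log2 ratio differed by 1.004 and passed (adjusted p = 0.00521 from limma). The limma fits between lines given here also gave every gene the same standard error. Their intervals and p-values thus do not carry the ratio's own spread. In leaves the ratio was 1.496, 2.09 and 0.737 times as high in Rht-B1b in the pairs, a log2 difference of 0.40 (standard error 0.39, 95% interval -0.39 to 1.19, adjusted p = 0.310 from limma, exact permutation p = 0.6). That difference was 0.071 without pair 2 and 0.82 without pair 3 (adjusted p = 0.0666 from limma). There, 1 of 25 genes (4%), Rht-B1, passed relative to AGP-SS. The line effect on the ratio, stems minus leaves, was 0.34 (standard error 0.53, 95% interval -0.71 to 1.39, adjusted p = 0.580 from limma, exact permutation p = 0.685), and 3 of 25 genes (12%) passed relative to AGP-SS, namely the sucrose transporter gene SUT1D, the glutamate synthase gene NADH-GOGAT-3B and the gibberellin signalling gene gid2. Without pair 3 the sign of this difference turned (-0.28, adjusted p = 0.726 from limma).

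The 5 other genes of starch synthesis on the sheet act after ADP-glucose is made. They are GBSSII, a granule-bound starch synthase, starch synthase isoform IV and the starch synthase IIc precursor, which extend glucan chains, and Sbe2 and sbeiia, which encode starch branching enzymes. In stems 2 of these 5 rose in Rht-B1b and 0 fell, starch synthase isoform IV by 0.64 (standard error 0.10) and the IIc precursor by 0.91 (standard error 0.14) on the log2 scale, both with an adjusted p = 0.0241 from limma. Over all genes 8 of 25 (32%) rose and 0 fell in stems. The median log2 difference of the 5 genes was 0.64, and that of all 25 genes was 0.56. Relative to the geometric mean of the genes neither passed (0.19 with adjusted p = 0.396 for isoform IV and 0.47 with adjusted p = 0.0771 for the IIc precursor), whereas agp2 did. GBSSII had a log2 difference of 0.77 (standard error 0.20) with an adjusted p = 0.0572 from limma. In leaves none of the 5 passed between lines (0 of 5 had an unadjusted p under 0.05), and their median log2 difference was 0.092, as over all genes.

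**Figure D3:**
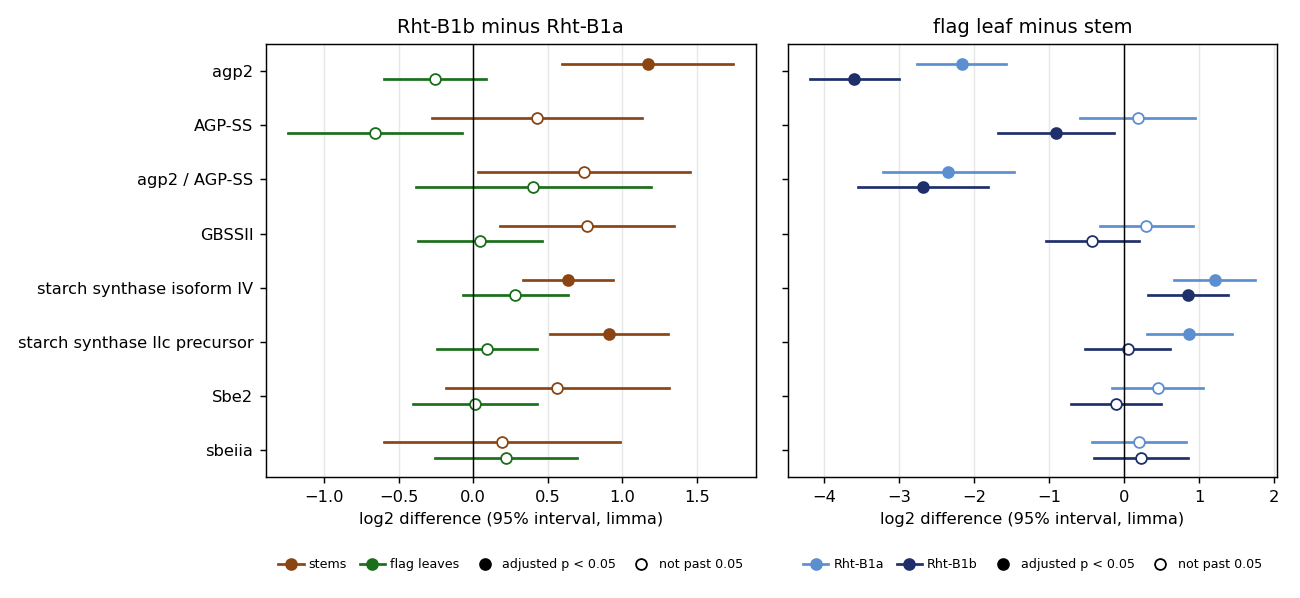
Log2 differences with 95% intervals from limma (horizontal axis) for agp2, AGP-SS, their ratio and the 5 other starch genes, between lines on the left and between tissues on the right, with filled points past an adjusted p of 0.05. For agp2 the leaf minus stem values of -2.17 and -3.60 lie far to the left of those of the 5 other starch genes, which run from -0.42 to 1.21. The intervals of the ratio come from fits where all genes shared 1 standard error.

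The leaf minus stem differences of the 5 starch genes lay between -0.42 and 1.21, all above those of agp2. Isoform IV was higher in leaf in both lines, by 1.21 in Rht-B1a (adjusted p = 0.000189 from limma) and 0.85 in Rht-B1b (adjusted p = 0.00497 from limma). The IIc precursor was higher by 0.87 in Rht-B1a (adjusted p = 0.00678 from limma), and none of the 5 was lower in leaf past the threshold in either line. Scaling bears on this, since relative to the geometric mean of the genes GBSSII was lower in Rht-B1b leaves (-0.72, adjusted p = 0.00206 from limma) and sbeiia in Rht-B1a leaves (-0.48, adjusted p = 0.0317 from limma), while isoform IV still passed as higher in leaf in both lines.

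A ratio to the geometric mean of these 5 genes within each sample, chosen after the values were seen, removes the scaling. The log2 ratio of agp2 to the 5 genes ran from 1.43 to 2.36 in stems and from -1.74 to -0.49 in leaves, without overlap. Its mean difference, leaf minus stem, was -3.24 (exact permutation p = 0.005, the smallest allowed). In stems agp2 stood 0.56 higher on this scale in Rht-B1b than in Rht-B1a (exact permutation p = 0.1, higher in 3 of 3 pairs), and in leaves the difference was -0.39 (exact permutation p = 0.5). The line effect, stems minus leaves, was 0.94 (exact permutation p = 0.05). The log2 ratio of AGP-SS to the 5 genes ran from 0.82 to 1.39 in stems and from -0.30 to 1.10 in leaves, with a mean difference of -0.72, leaf minus stem (exact permutation p = 0.02). Between lines it differed by -0.19 in stems (exact permutation p = 0.4) and by -0.79 in leaves (exact permutation p = 0.2). Of differences between groups 20 exact tests were run, 8 of them on these starch ratios, and their p-values are not adjusted.

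Across samples, the 2 subunit genes were compared within each tissue, since stems and leaves form separate clusters. Over the 6 stems Pearson's r of the log2 values was 0.824 (exact permutation p = 0.0278, adjusted over the 2 tissues 0.0556) and Spearman's rho was 0.771 (exact permutation p = 0.103, adjusted 0.206). Without the samples farthest from the median of agp2, the Rht-B1a stem of pair 2 and the Rht-B1b stem of pair 3, r over the other 4 was 0.375, so the value of r rests on those 2 samples, whose removal also narrows the range of agp2. The lines do not overlap in agp2 among stems, and r of the deviations from the line means was 0.807. Among stems the Rht-B1a sample of pair 2 was the lowest of its group for 14 of 25 genes and the Rht-B1b sample of pair 3 the highest for 15, and the part of this in the relation was not tested. Over the 6 leaves r was 0.167 (exact permutation p = 0.743, adjusted 0.743) and rho was -0.143 (exact permutation p = 0.803, adjusted 0.803), and r was 0.37 without the 2 farthest leaves.

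**Figure D4:**
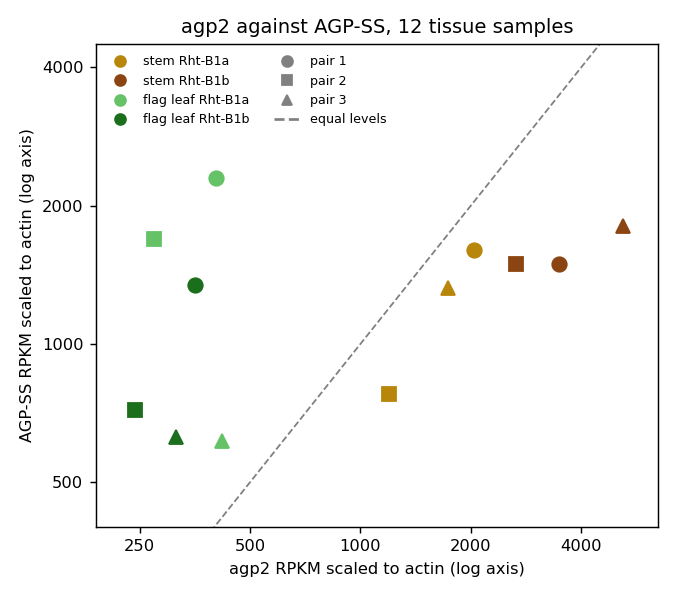
AGP-SS against agp2 in each of the 12 tissue samples (both axes RPKM scaled to actin, log axes), coloured by group, with pairs as symbols and a dashed line of equal levels. The 6 stems lie on the agp2 side of the line and the 6 leaves on the AGP-SS side, with AGP-SS at 780 to 1810 RPKM in stems and at 615 to 2299 RPKM in leaves.

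The genes whose patterns were most like those of the 2 subunit genes were not the same. Likeness was measured as the root mean square difference of log2 values after centring each gene, over 24 other genes and with no test. Over the 12 samples agp2 was nearest to 2 genes of nitrogen metabolism, GDH (glutamate dehydrogenase, 0.497) and NADH-GOGAT-3B (0.768), followed by GAPC8 (0.967), which encodes a glyceraldehyde-3-phosphate dehydrogenase of glycolysis. GDH, like agp2, was at a higher level in stems, with 2151 ± 608 RPKM in Rht-B1a and 3683 ± 185 in Rht-B1b stems against 493 ± 182 and 613 ± 152 in leaves (SD, n = 3). AGP-SS was nearest to genes that act later in starch synthesis, GBSSII (0.409), sbeiia (0.490) and Sbe2 (0.518). The other starch genes were farther, the IIc precursor at rank 6 (0.628) and isoform IV at rank 10 (0.855) of 24 genes. Within the 6 stems agp2 was nearest to GBSSII (0.220), the IIc precursor (0.224) and gid1 (0.243), and AGP-SS to sbeiia (0.198), GAPC8 (0.205) and the pyruvate kinase gene PK (0.210). Within the 6 leaves agp2 was nearest to PK (0.0957), GAPC8 (0.199) and the nitrite reductase gene NiR (0.204), and AGP-SS to GBSSII (0.466), sbeiia (0.526) and Sbe2 (0.527).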

How the data were processed

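The authors prepared mRNA libraries from 12 tissue samples and, with ArrayStar (version not given in the sources used here), matched reads at 100% over at least 50 bp to selected wheat sequences. The deposited RPKM values were then scaled to actin by the authors. Of 27 lines 1 is a repeat, which leaves 26 genes, and 10 columns of the authors' means, standard errors and p-values were not used. Depth per sample is unknown and no genome build is given, so no coordinates are printed, and the reference table at hand matched neither source sequence.

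log2(RPKM + 1) of 25 genes other than actin was tested with limma 3.58.1 in R 4.3.3, two-sided, with Benjamini-Hochberg adjustment over 25 genes and a threshold of 0.05, in each tissue apart with the pair as a block. The line effect in stems minus leaves was fitted over 12 samples, blocked by pair within tissue, and leaf against stem over the 4 groups without a block, since no label ties a leaf to a stem. The ratio was fitted with all genes divided by AGP-SS, actin included. Exact permutation tests over samples (Python 3.11.15) stand beside them. Between lines they shuffle the line labels within a tissue and ignore the pairs. They are thus not tests of the paired design that the limma fits use. The fits scaled to actin, and not those of the ratio, were run on simulated data with independent noise for each gene. The simulation held no pair effects or whole-sample shifts, so it cannot show how the fits behave where whole samples stand apart. The study's methods name a paired test but not the pairs, so consecutive sample numbers were taken. Deviations from line means correlated within these pairs at -0.361, 0.047 and 0.286 in stems and 0.528, -0.106 and 0.764 in leaves, and not every one is over 0.1, so the values do not settle whether the numbers pair the samples. P-values set a difference against the spread between these samples. In limma that spread is shared in part over the genes, and wholly where all genes have 1 standard error.

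The members, lists and tests were chosen with earlier results of these data known. Genes named are the 2 members, the 5 other starch genes and, for each member, the 3 nearest by likeness. Rht-B1, gid2 and SUT1D, and GDH's levels, are named after their values were seen. Alternatives were the block, each sample or pair left out, pseudocounts of 0, 10 and 100, a filter at a mean of 500 RPKM and other scalings, of which a geometric mean with rbcL, and the ratio with both tissues in 1 fit, were chosen after seeing the data.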

Additional observations from a re-analysis of the deposited data

Results flagged for a closer look

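For agp2 the Rht-B1b effect differed between stems and leaves in a test of the difference itself, by 1.43 on the log2 scale (adjusted p = 0.00413 from limma). The Rht-B1b sample was the higher in 3 of 3 stem pairs and in 0 of 3 leaf pairs. Most of the 25 genes were likewise higher in Rht-B1b in all 3 stem pairs. Over all genes 21 of 25 had a difference above 0, stems minus leaves, with a median of 0.36, and 3 passed. For agp2 the call was lost without pair 2 and without pair 3.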

How the results depend on the processing

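Depth is unknown, and the pairs are a reading of sample numbers. With the pairs ignored, 3 samples a group allow no exact p under 0.1 between lines within a tissue. The stem to leaf differences of agp2 kept their direction and stayed past the threshold in all 20 alternatives in each line, and those of the ratio in all 17. For the ratio in leaves and for agp2 in leaves no alternative changed the call, and the filter at a mean of 500 RPKM gave no agp2 value there. Without the block for the pair, the difference of agp2 in stems was 1.17 (adjusted p = 0.0255), its line effect in stems minus leaves 1.43 (adjusted p = 0.0223) and that of AGP-SS 1.09 (adjusted p = 0.314). With the pair number as a block across tissues leaf minus stem was -2.17 and -3.60 for agp2 in Rht-B1a and Rht-B1b, and the block changed no call of the members or their ratio. Leaving out 1 pair at a time, the log2 difference of agp2 was 0.96 to 1.37 in stems and 1.14 to 1.66 for stems minus leaves. That of AGP-SS was 0.17 to 0.69 in stems, -1.004 to -0.37 in leaves and 0.55 to 1.42 for stems minus leaves. For the ratio it was 0.55 to 1.004 in stems, 0.071 to 0.82 in leaves and -0.28 to 0.93 for stems minus leaves. Leaving out 1 sample at a time, AGP-SS leaf minus stem ran from -0.21 to 0.74 in Rht-B1a. It was below 0 without the stem Rht-B1a sample of pair 2 (-0.12) or the leaf Rht-B1a sample of pair 1 (-0.21). It was past the threshold as higher without the leaf Rht-B1a sample of pair 3 (0.74, adjusted p = 0.0222 from limma), in a fit where all genes shared 1 standard error. In Rht-B1b it ran from -1.25 to -0.69 and was past the threshold no longer without the stem Rht-B1b samples of pair 1 or 3, the leaf Rht-B1a sample of pair 2 or the leaf Rht-B1b samples of pair 2 or 3 (adjusted p of 0.0542 to 0.142). Pseudocounts of 10 (-0.90, adjusted p = 0.107) and 100 (-0.83, adjusted p = 0.1396) also ended that call. AGP-SS leaf minus stem in Rht-B1a was below 0 with the geometric mean of genes (-0.50), with rbcL added to it (-0.62) and with the median gene (-0.48). The line difference of AGP-SS in stems was -0.021 and -0.028 with those geometric means and in leaves -0.73 and -0.72, past the threshold (adjusted p = 0.000335 and 0.000372). Those leaf fits also gave all genes 1 shared standard error. AGP-SS stems minus leaves passed with a pseudocount of 0 (1.09, adjusted p = 0.0355) and with the filter (1.09, adjusted p = 0.0346). Adjusted p for agp2 in stems ran from 0.000379 to 0.128 over 12 alternatives. The number of genes called was 0 to 14 in stems (0 without pair 1, 4 with each other scaling, 5 without pair 2 or 3, 13 with a pseudocount of 0 and 14 with both tissues in 1 fit), 0 to 2 in leaves, 0 to 4 for stems minus leaves and 16 to 21 between tissues. The cause of these shifts was not tested.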
